A study of Mus musculus with 15 samples.

Results

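Red cell genes were read in spleens of Bl/6 Taconic mice that had acute promyelocytic leukaemia (APL), in which immature granulocytes, the promyelocytes, fill marrow and spleen. The series held 15 whole-transcript exon arrays, 1 for each of 15 tumours named by number, and all 15 formed 1 group. No healthy spleen was analysed here, so the only comparison the labels allow is between tumours. Any transgene behind the leukaemia and the age and sex of the mice are not given in the sources used here. The labels do not say that the tumours came from separate animals, so each p-value measures only the spread between these arrays.

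The genes described are 9 that are used in erythroid cells, Hbb-b1, Tfrc, Klf1, Gata1, Alas2, Slc4a1, Car2, Epb42 (listed on the platform as Epb4.2) and Rhag. They were read by every probeset that carried no other gene symbol, 111 of the 229581 on the array, and they are 9 of 16277 genes measured in this way. Each gene's level in a tumour is the median of its probesets on the log2 scale of the deposited intensity, so a difference of 1 is a 2-fold difference in intensity. A gene counted as detected if it averaged above 6.41 over the 15 tumours, the 40th percentile of all gene means. Probes differ in how brightly they bind, so levels of different genes are not amounts of RNA that can be set against each other.

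In mice the spleen makes red cells in adult life, together with the marrow, and makes many more of them under anaemia. The transcription factors GATA1, which binds GATA motifs, and KLF1, which binds CACCC motifs, turn on the genes of the maturing erythroblast. The transferrin receptor (Tfrc) brings in iron, ALAS2 makes the first precursor of haem, β-globin (Hbb-b1) carries the haem, and band 3 (Slc4a1), protein 4.2 (Epb42) and the Rh-associated glycoprotein (Rhag) form a complex in the red cell membrane that works beside carbonic anhydrase 2 (Car2).

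Promoters of 6 of the 9 genes, in 7 sequences, were listed in RefSeq for build GRCm38.p6. Those for Alas2 and Rhag are shown because Rhag ranked 1 of all genes by its correlation with Alas2, and Alas2 ranked 2 by its correlation with Rhag, and that of Tfrc (the first of 2 start sites) because Tfrc followed neither. Each is the 250 bases before the start site, read 5′ to 3′ in the direction of the gene, at chrX:150547167-150547416 (+ strand) for Alas2, chr17:40810899-40811148 (+) for Rhag and chr16:32608646-32608895 (+) for Tfrc. Capitals mark matches to GATAA, the core of a GATA motif, and to CCNCNCCC, a pattern that covers the CACCC motif, on either strand, so that a match on the far strand appears as its reverse complement (TTATC for GATAA).
Alas2: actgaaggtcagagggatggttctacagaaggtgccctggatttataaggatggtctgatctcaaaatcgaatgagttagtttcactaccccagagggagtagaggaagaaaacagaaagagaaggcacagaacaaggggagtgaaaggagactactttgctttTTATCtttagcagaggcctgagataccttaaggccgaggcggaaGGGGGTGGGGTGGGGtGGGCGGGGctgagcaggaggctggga
Rhag: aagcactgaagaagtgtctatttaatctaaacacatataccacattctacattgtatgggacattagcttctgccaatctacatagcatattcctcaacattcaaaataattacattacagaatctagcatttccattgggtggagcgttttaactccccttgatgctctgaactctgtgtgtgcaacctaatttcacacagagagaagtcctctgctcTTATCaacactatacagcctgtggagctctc
Tfrc: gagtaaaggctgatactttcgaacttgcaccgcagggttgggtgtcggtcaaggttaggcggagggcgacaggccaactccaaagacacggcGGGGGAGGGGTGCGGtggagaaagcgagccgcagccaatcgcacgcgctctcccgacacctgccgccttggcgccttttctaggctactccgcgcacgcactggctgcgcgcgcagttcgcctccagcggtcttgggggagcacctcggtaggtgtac
The Alas2 window held 1 GATAA match on the far strand, 86 bases before the start, and 4 CCNCNCCC matches closer to it, of which some overlap. The Rhag window held 1 GATAA match, 31 bases before the start, and no CCNCNCCC match, whereas the Tfrc window held 3 overlapping CCNCNCCC matches and no GATAA match. Klf1 and Epb42 each had 1 GATAA match, and Gata1 had 3 CCNCNCCC matches. Of 32851 mouse promoter windows of the same length, 22.6% held GATAA, 45.9% held CCNCNCCC and 6.89% held both, so such matches are common, and they are given as a description of the letters only.

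Of the 9 genes, 4 were detected on average (Hbb-b1, Tfrc, Slc4a1 and Alas2) and 5 were not (Epb42, Gata1, Klf1, Car2 and Rhag). The limit lets 9766 of all 16277 genes pass. All 7 primary granule genes of the promyelocyte were detected, among them Mpo, the myeloperoxidase, at 12.91 ± 0.27, and Ctsg, cathepsin G, at 12.20 ± 0.24 (SD, n = 15). As most genes pass the limit, this count is no test of the label.

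**Figure D1:**
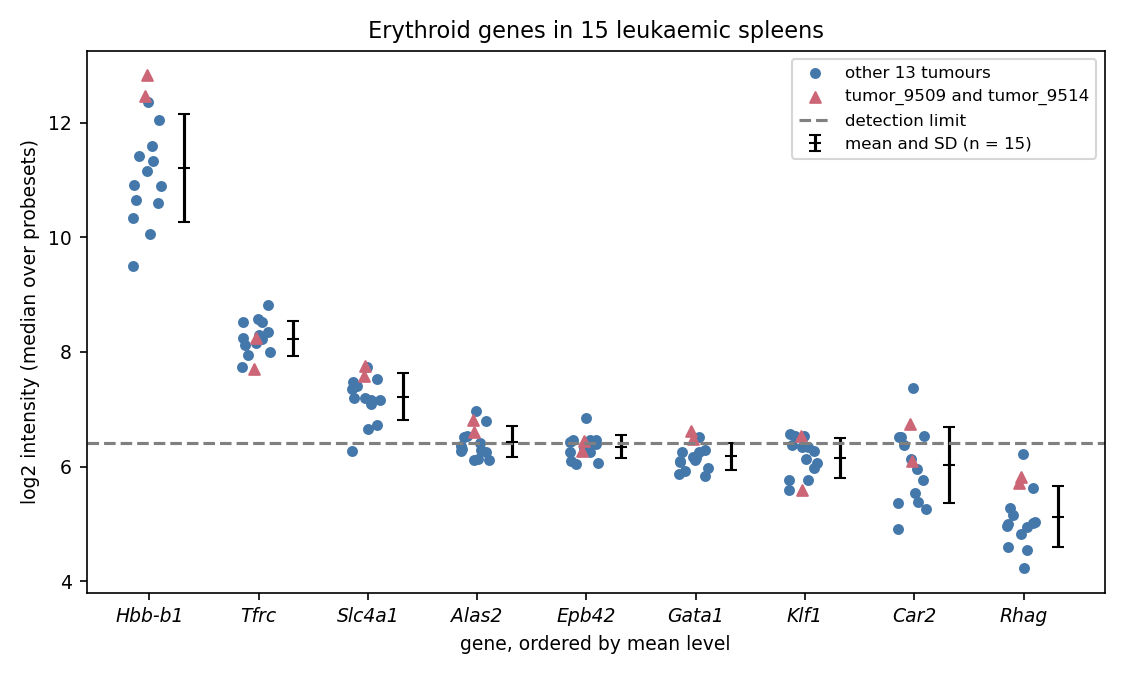
Log2 intensity of each gene in each of the 15 tumours (points, triangles for the 2 arrays that stood apart), with mean and SD at the right of each column and the detection limit as a dashed line. Hbb-b1 runs from 9.50 to 12.82, the widest range of the 9, and all 15 values of Rhag lie under the limit.

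No 2 arrays held identical values. Median intensity was 107.62 in tumor_9509 and 108.14 in tumor_9514, and between 120.21 and 128.54 in the other tumours. The arrays of tumor_9509 and tumor_9514 were thus the dimmest, and they were unlike the rest in pattern as well. Their correlation with each other was 0.96 over all genes, and neither passed 0.95 with any other array. Both were among the highest for Hbb-b1, so results are given without them as well. Tumour numbers of 4 digits (10 tumours) and 2 digits (5 tumours) could mark batches. In limma with Benjamini-Hochberg adjustment, 0 of 9766 detected genes differed between those groups (0%, with 226, 2.31%, at an unadjusted p under 0.05), and none of the 9 erythroid genes differed in the fit over all genes (adjusted p = 0.9997 each). The lowest unadjusted p among them was that of Klf1, which averaged 6.03 ± 0.36 in 4-digit tumours and 6.41 ± 0.13 in 2-digit tumours (SD, unadjusted limma p = 0.0299).

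Hbb-b1, an adult β-globin gene, was the most variable of the 9. Its lowest level was 9.50 in tumor_9500, its median 11.16 and its highest 12.82 in tumor_9509, a 9.99-fold range of intensity, and its mean was 11.21 ± 0.94 (SD, n = 15). The SD exceeded that of 99.2% of all genes. High values came from tumor_9509, tumor_9514, tumor_9492 and tumor_9529, all above 12, and low ones from tumor_9500 and tumor_9520, at 9.50 and 10.06. The 2 probesets of Hbb-b1 varied together closely across tumours (r = 0.9965). The other genes are medians of 7 to 22 probesets, so their SDs are not on equal terms with that of Hbb-b1. Single probesets of Slc4a1, Alas2, Car2 and Rhag had SDs of up to 1.05, 0.98, 1.65 and 1.34. In bulk tissue, fewer cells of a type and less RNA in each cell cannot be told apart.

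Hbb-b1 has a near-identical neighbour, Hbb-b2, and 7 further probesets carry both symbols, so the 2 used here may also bind RNA of that copy. Those 7 probesets averaged 11.79 ± 0.81, and their lowest and highest tumours were again tumor_9500 and tumor_9509, at 10.24 and 13.08. The 5 probesets shared by the α-globin genes Hba-a1 and Hba-a2 averaged 10.83 ± 0.94, with the same lowest and highest tumours, at 9.65 and 12.56. α-globin, which lies on another chromosome, followed Hbb-b1 closely (r = 0.97, and 0.95 without tumor_9509 and tumor_9514). The embryonic globins had no such range: Hbb-y had a mean of 5.92 ± 0.33, Hbb-bh1 one of 3.86 ± 0.27, both under the detection limit, and Hba-x one of 7.03 ± 0.16.

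Slc4a1, which encodes band 3, the anion exchanger of the red cell, had its lowest level of 6.28 in tumor_9500, a median of 7.20 and its highest level of 7.75 in tumor_9509 (mean 7.22 ± 0.41). It was above the detection limit in 14 of 15 tumours, with tumor_9500 as the exception. The tumours at both ends were those at both ends of Hbb-b1. Rhag, the ammonia channel of the Rh complex, ran from 4.23 in tumor_9520 through a median of 5.02 to 6.21 in tumor_9492 (mean 5.13 ± 0.53), under the limit in every tumour. Though dim, Rhag varied in a similar way across tumours in the 2 sets into which its 12 probesets were split (r = 0.82). Its SD exceeded that of 91.9% of all genes.

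Epb42, whose protein holds band 3 to the membrane skeleton, was the least variable of the 9, with a lowest level of 6.05 in tumor_31, a median of 6.37 and a highest level of 6.84 in tumor_9492 (mean 6.35 ± 0.20). Only tumor_9492 lay clear of the others. Its 2 sets of probesets were less alike (r = 0.55). Car2, the fast carbonic anhydrase of red cells and of several other cell types, ran from 4.91 in tumor_9504 through 6.09 to 7.37 in tumor_9492, a 5.49-fold range (mean 6.03 ± 0.66). Its SD exceeded that of 96.6% of all genes, and 4 of its 10 probesets had mean levels above the limit.

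Alas2, the erythroid form of the enzyme that starts haem synthesis, had a lowest level of 6.11 in tumor_9508, a median of 6.36 and a highest level of 6.97 in tumor_9492 (mean 6.43 ± 0.27). It was above the limit in 6 of 15 tumours. Single Alas2 probesets differed: the 3 of highest correlation with Hbb-b1 among its 15 (0.95, 0.95 and 0.91) had means of 8.63, 8.08 and 8.19 and SDs of 0.42, 0.98 and 0.96, whereas another with a mean of 8.29 had a correlation of 0.21 and an SD of 0.25. Tfrc, the transferrin receptor of every dividing cell and most abundant on erythroblasts, ran from 7.71 in tumor_9514 through 8.25 to 8.82 in tumor_29 (mean 8.23 ± 0.31). Tumor_9514 was thus lowest for Tfrc and second highest for Hbb-b1.

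Both transcription factors averaged under the limit. Gata1 had a lowest level of 5.84 in tumor_9529, a median of 6.15 and a highest level of 6.62 in tumor_9514 (mean 6.17 ± 0.23), and 3 of its 9 probesets had mean levels above the limit. Klf1 ran from 5.58 in tumor_9500 through 6.26 to 6.57 in tumor_26 (mean 6.16 ± 0.35), with 1 of 7 probesets above the limit. Probesets of each gene agreed poorly across tumours (r = 0.45 for Gata1 and 0.29 for Klf1 between 2 sets of probesets), which limits any relation drawn from either gene.

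Across tumours, 5 of the genes varied together. All 10 pairs among Hbb-b1, Slc4a1, Alas2, Rhag and Car2 had correlations between 0.61 and 0.84 (median 0.74), while the other 26 pairs lay between -0.40 and 0.58 (median 0.18). Over all pairs of detected genes, which do not include Car2 and Rhag, the median was 0.08 and the 95th percentile 0.63. These 5 were picked out after the values were seen, so no test was made of them as a set. Tumor_9492, tumor_9514 and tumor_9529 were among the 4 highest tumours for all 5 genes and tumor_9509 for 4 of them, and tumor_9500 and tumor_9520 were among the 4 lowest for 4 of the 5. Without tumor_9509 and tumor_9514 the 10 correlations lay between 0.55 and 0.82, and within the 10 tumours with 4-digit numbers between 0.61 and 0.90. The 5 tumours with 2-digit numbers are too few for a correlation.

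**Figure D2:**
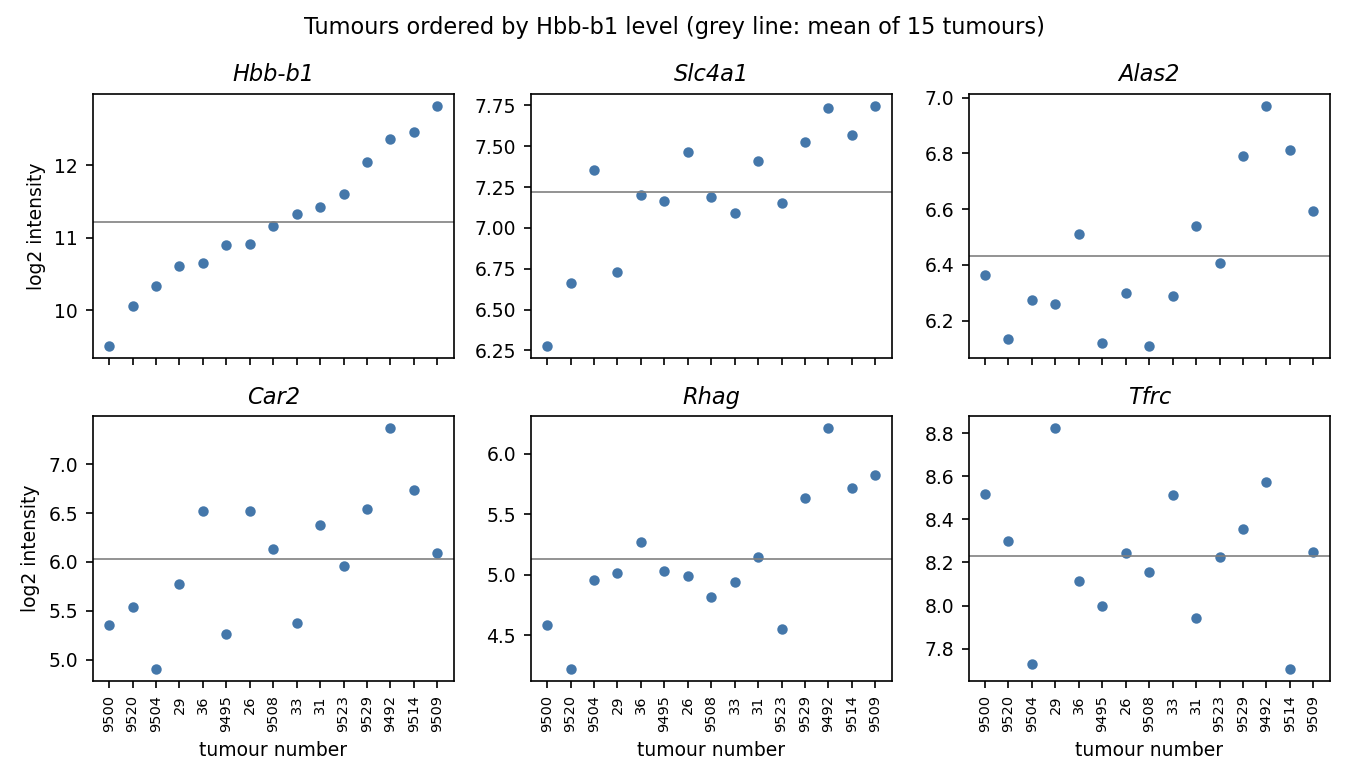
Log2 intensity of 6 of the genes in each tumour, with tumours in the same order in every panel, from the lowest Hbb-b1 level (tumor_9500, 9.50) to the highest (tumor_9509, 12.82), and the mean over 15 tumours as a grey line. Slc4a1 and Rhag are high in the last 4 tumours; Alas2 and Car2 are high in tumor_9529, tumor_9492 and tumor_9514 (6.79 to 6.97 and 6.54 to 7.37) but lower in tumor_9509 (6.59 and 6.09).

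With the median over probesets, the closest pair was Hbb-b1 and Slc4a1 (r = 0.84, permutation p = 7e-05). Spearman's rho was 0.78 (permutation p = 0.0011), with both tests two-sided and 36 pairs examined. Among 16276 other genes Slc4a1 ranked 3 by its correlation with Hbb-b1, and Hbb-b1 ranked 1 by its correlation with Slc4a1. Leaving out the 2 tumours farthest from the Hbb-b1 median (tumor_9500 and tumor_9509) gave 0.74, and leaving out the 2 arrays that stood apart gave 0.81. Alas2 and Rhag were as close (r = 0.84, permutation p = 9e-05; rho = 0.71, permutation p = 0.004), and without the 2 tumours farthest from the Alas2 median r was 0.70. In the fit over all 16276 genes, limma's adjusted p was 0.0553 for Slc4a1 on Hbb-b1 and 0.221 for Rhag on Alas2, so neither pair passed at 0.05 there, where 1 gene passed for Hbb-b1 (0.00614%) and none for Alas2.

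Rhag also followed Hbb-b1 (r = 0.79, permutation p = 0.00056) and Slc4a1 (r = 0.78, permutation p = 0.00047), and Car2 followed Alas2 (r = 0.77, permutation p = 0.00095). With the 2 farthest tumours left out, these were 0.74, 0.79 and 0.58. The weakest links of the 5 were Slc4a1 with Car2 (r = 0.61, permutation p = 0.016) and Alas2 with Slc4a1 (r = 0.61, permutation p = 0.015). The second of these was 0.48 without tumor_9492 and tumor_9514 and then missed 0.05 in the permutation test. This order of pairs is that of the median over probesets. With the mean over probesets, Slc4a1 with Rhag was highest (r = 0.91), followed by Hbb-b1 with Alas2 (0.89) and Alas2 with Slc4a1 (0.84). Hbb-b1 with Slc4a1 was then 0.80, and Hbb-b1 with Car2 was lowest within the 5 (0.68).

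**Figure D3:**
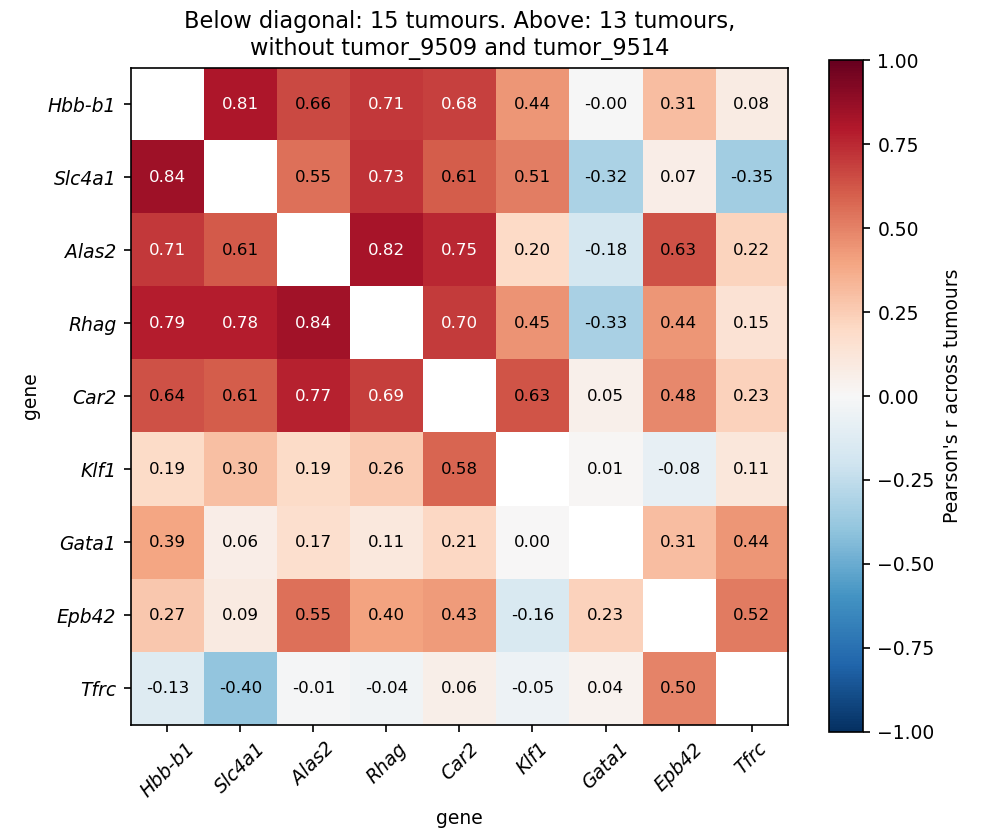
Pearson's r between each pair of the 9 genes, over 15 tumours below the diagonal and over the tumours other than tumor_9509 and tumor_9514 above it. The block of Hbb-b1, Slc4a1, Alas2, Rhag and Car2 is between 0.61 and 0.84 below the diagonal and between 0.55 and 0.82 above it.

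With the median over probesets, Tfrc, Gata1 and Epb42 did not share that pattern, though Epb42 came nearer to it with the mean over probesets, as given below. Tfrc had correlations of -0.13 with Hbb-b1 (permutation p = 0.66) and -0.40 with Slc4a1 (permutation p = 0.14), and its highest was with Epb42 (r = 0.50, permutation p = 0.058; rho = 0.54, permutation p = 0.042). Gata1 had its highest correlation among the 9 with Hbb-b1 (r = 0.39, permutation p = 0.15), which was -0.0028 without tumor_9509 and tumor_9514. Klf1 was correlated with Car2 (r = 0.58, permutation p = 0.022; 0.64 without the 2 farthest tumours) and less with Hbb-b1 (r = 0.19, permutation p = 0.49). Epb42 was correlated with Alas2 (r = 0.55, permutation p = 0.034), and this was 0.36 when tumor_9492 and tumor_9514 were left out. A permutation p above 0.05 at n = 15 does not show that 2 genes vary independently.

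The gene values are medians of single probesets, whose counts are given only to describe them. Correlations above 0.5 with Hbb-b1 were found for 8 of 15 probesets of Alas2, 12 of 22 of Slc4a1, 7 of 10 of Car2, 5 of 12 of Rhag, 4 of 13 of Epb42, 2 of 21 of Tfrc, 1 of 7 of Klf1 and 1 of 9 of Gata1, and for 2.74% of the 208395 single-symbol probesets of all genes but Hbb-b1. The shares of Rhag and Epb42 were thus close. All 7 Slc4a1 probesets with an SD above 0.8 were among the 12. Car2 had the most variable probeset of the 4 genes that followed Hbb-b1, with an SD of 1.65 around a mean of 4.78. Epb42 was more like the others when its gene value was the mean of the probesets: its correlation was then 0.71 with Rhag, 0.64 with Slc4a1 and 0.57 with Hbb-b1.

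**Figure D4:**
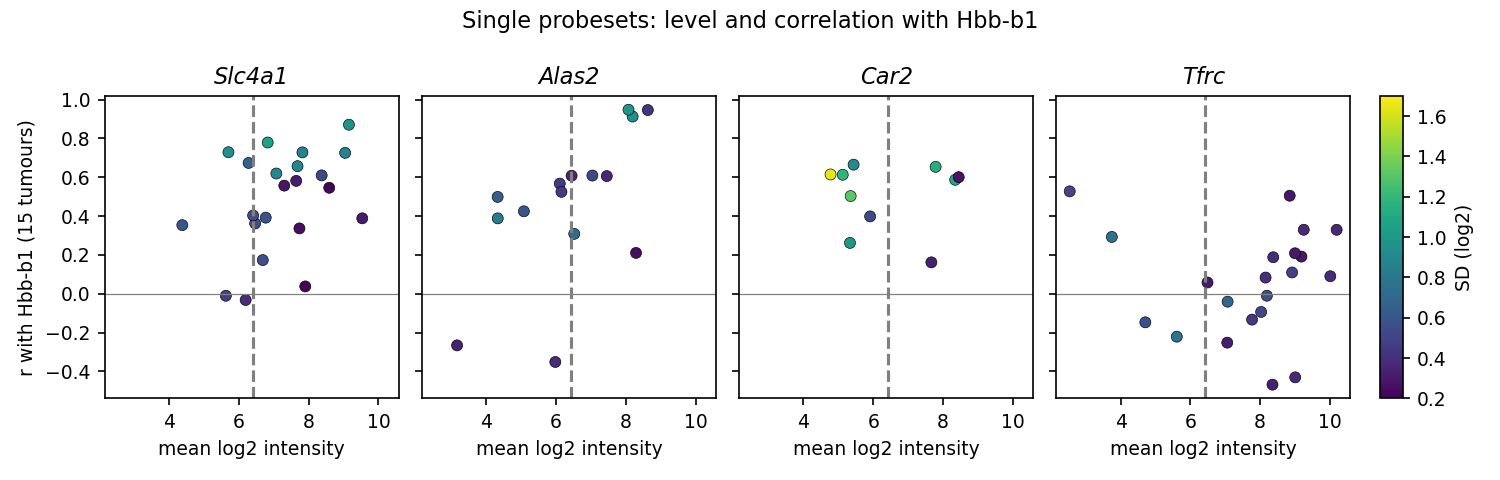
Each point is a probeset of Slc4a1, Alas2, Car2 or Tfrc, with its mean log2 intensity over 15 tumours on the x axis, its correlation with Hbb-b1 on the y axis and its SD as colour; the dashed line is the detection limit. Tfrc probesets scatter around 0 (median 0.08), and those of Slc4a1 have a median of 0.55.

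A limma fit of every detected gene on each of the 9 gave calls for Hbb-b1 and Gata1 at an adjusted p under 0.05. With Hbb-b1, 33 of 9765 genes varied (0.338%), of which 2 rose (0.0205%) and 31 fell (0.317%) with increasing Hbb-b1. Of the 3 other erythroid genes that were detected, 1 was among them. Slc4a1 rose by 0.37 for each unit of Hbb-b1 (adjusted p = 0.0368), as did Med30, a subunit of the Mediator complex, by 0.40 (adjusted p = 0.0368). Alas2 had a slope of 0.20 (adjusted p = 0.144), and that of Tfrc was not past the threshold (adjusted p = 0.853). With the mean over probesets the Alas2 slope was 0.31 and passed in limma (adjusted p = 0.0192). Under the other alternatives fitted, Alas2 did not pass. The Slc4a1 slope lay between 0.31 and 0.42 in the alternatives fitted, which did not include the 4-digit tumours alone or leaving out the 2 farthest tumours, but its adjusted p lay between 0.0179 and 0.360 and was above 0.05 without tumor_9509 and tumor_9514 (0.360), and when any 1 of tumor_9509, tumor_9514, tumor_9520, tumor_9500, tumor_9495, tumor_36, tumor_31, tumor_33 and tumor_9508 was left out (0.0523 to 0.210). It was also above 0.05 with no filter on dim genes (0.0553) and with the number of digits as a term (0.0703).

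Among the genes that fell with Hbb-b1, Scd2, a stearoyl-CoA desaturase, had the lowest adjusted p (slope -0.46, r = -0.89, adjusted p = 0.0285), with its highest level of 8.38 in tumor_9500 and its lowest of 6.77 in tumor_9509. By p-value Rela, a subunit of NF-κB (slope -0.37, r = -0.87), and Otub1, a deubiquitinase (slope -0.61, r = -0.83), came next, both with an adjusted p of 0.0368. Of the 31, 23 lie on chromosome 19, which holds 3.81% of detected genes. The count of 33 was 0 without tumor_9509 and tumor_9514. Leaving out any single tumour moved it by over 1.5 times: it was 0 without tumor_9509, tumor_36, tumor_9514, tumor_9520 or tumor_33, 1 without tumor_9495 or tumor_9508, 2 without tumor_9504 or tumor_31, 11 without tumor_9523, 15 without tumor_26, 21 without tumor_9500, 50 without tumor_29, 104 without tumor_9492 and 111 without tumor_9529.

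With Gata1, 5 of 9766 genes varied (0.0512%). Ccr2, a chemokine receptor of monocytes, rose (0.0102%; r = 0.85, adjusted p = 0.046), and Sh3bp1, Pan2, Cyp4f13 and Tbrg1 fell (0.041%), led by Sh3bp1 (r = -0.89, adjusted p = 0.0318). No gene of the erythroid lists was among them. The count was 0 without tumor_9509 and tumor_9514, and 1085 without tumor_9523, in which Gata1 was second highest at 6.52. It was also 0 without any 1 of tumor_9504, tumor_31, tumor_9495, tumor_9509, tumor_9492, tumor_26 and tumor_9514, 1 without tumor_9520 or tumor_9508, 2 without tumor_9500 and 16 without tumor_29.

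For the other 7 genes no detected gene passed in limma (0%). At an unadjusted p under 0.05 the counts ran from 213 of 9766 genes for Klf1 to 978 of 9765 for Tfrc. With no filter on dim genes, Car2 had 1 call among 16276 genes (0.00614%), Cldn13 (adjusted p = 0.0002), a claudin that in mice is found on erythroid cells. Cldn13 ran from 5.55 in tumor_9500 to 7.36 in tumor_9492 with a mean of 6.24 ± 0.51, under the limit. It followed Car2 with r = 0.96 and rho = 0.94 (permutation p = 1e-05 for both, the smallest that 100000 permutations can give), and r was 0.94 without tumor_9492 and tumor_9504, the 2 farthest tumours, and 0.97 within the 4-digit tumours.

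The genes most like each of the 9 were taken by rank of r over 15 tumours among detected genes with at least 3 probesets. For Rhag the first 2 were erythroid genes, Alas2 and Slc4a1 (r = 0.84 and 0.78), and for Car2 the second was Alas2 (r = 0.77), after Atp1b2 (r = 0.82). For Hbb-b1 they were Med30, Slc4a1 and Ankmy2 (r = 0.86, 0.84 and 0.84), for Slc4a1 they were Btnl10, Smcp and C1d (r = 0.74, 0.72 and 0.72), and for Alas2 they were Ube2v2, Mis18a and Sri (r = 0.80, 0.80 and 0.79). For Tfrc they were Rlim, Spns3 and Ssx2ip (r = 0.85, 0.81 and 0.80). Klf1 was led by Scrn2 (r = 0.87), Gata1 by Ccr2 and Epb42 by Cyp20a1 (r = 0.73), none of them a gene of the erythroid lists. At the other end, the most negative correlations were those of Scd2 with Hbb-b1, Pkp3 with Slc4a1 (r = -0.80), Arl2 with Alas2 (r = -0.81), Zbtb8a with Car2 (r = -0.78), Pdgfrl with Rhag (r = -0.83), Adat3 with Epb42 (r = -0.76), Ddr1 with Tfrc (r = -0.84), Tha1 with Klf1 (r = -0.75) and Sh3bp1 with Gata1. Scd2 and Arl2 lie on chromosome 19.

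Other genes of the red cell membrane were correlated with the same 5 and with Epb42. Of 14 measured, 7 had a correlation above 0.5 with Hbb-b1, against 3.10% of all genes, and the median was 0.46, against -0.07 over all genes. For Alas2, Slc4a1 and Car2 the count was also 7 and for Rhag 8, against 2.93%, 2.38%, 2.58% and 2.34% of all genes, and for Epb42 it was 5, against 2.10%, with all 14 correlations positive. For Klf1 it was 2, against 2.30%, for Tfrc 1, against 5.23%, and for Gata1 0, against 4.52%. Whether these counts differ between the 9 genes was not tested. Of the 9 detected ones, none passed the fit on any of the 9 genes. Picked out after their values were seen, Ermap, a red cell adhesion protein, had r = 0.82 with Hbb-b1 (rank 8 of 16276), the spectrin gene Sptb had r = 0.80 with Slc4a1 (rank 4), and Ank1, the ankyrin that ties spectrin to band 3, had r = 0.73 with Rhag. The last was 0.41 without tumor_9492 and tumor_9509. Xk and Kcnn4, of highest mean intensity in the list, had -0.23 and 0.33 with Hbb-b1, and Icam4, an adhesion molecule of erythroblasts, had -0.63 with Rhag.

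Of 7 haem synthesis genes other than Alas2, none had a correlation above 0.5 with Hbb-b1, and 2 had one below -0.5, against 8.63% of all genes. Without tumor_9509 and tumor_9514 none was below -0.5, against 4.21% of all genes. Cpox and Alad, enzymes of the pathway, had r = 0.29 and -0.23 with Hbb-b1. Alas1, the form of the enzyme used in all other cells, had a mean of 9.85 ± 0.60 and r = -0.68 with Hbb-b1 (permutation p = 0.005; limma adjusted p = 0.111), which was -0.51 without the 2 farthest tumours and -0.39 without tumor_9509 and tumor_9514. Of 11 iron handling genes, none had r above 0.5 with Hbb-b1 (3.10% of all genes) and 4 had r below -0.5 (8.63%). Among these 4 was Fth1, the ferritin heavy chain (mean 12.27 ± 0.26; r = -0.72, permutation p = 0.0015; limma adjusted p = 0.137). Fth1 lies on chromosome 19, as do most genes that fell with Hbb-b1, and its r was -0.46 without tumor_9509 and tumor_9514. Without them 1 iron gene was below -0.5, Fbxl5 at -0.54, and 1 was above 0.5, Slc25a37, the mitochondrial iron carrier mitoferrin, at 0.57. Trf, which encodes transferrin (9.42 ± 0.71), and Slc40a1, the iron exporter ferroportin (7.19 ± 0.77), had r = -0.39 and -0.40 with Hbb-b1 over all 15 tumours. None of the 7 haem and 9 iron genes that were detected passed the fit on any of the 9 genes.

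Regulators of erythroid cells were mixed. Of 11 measured, 3 had r above 0.5 with Hbb-b1 and 4 with Slc4a1, against 3.10% and 2.38% of all genes, and 0 of the 10 detected passed any fit. Hemgn, an erythroid nuclear protein, had the largest SD (6.43 ± 0.61) and followed Alas2 (r = 0.75, permutation p = 0.0014; limma adjusted p = 0.290) and Rhag (r = 0.74). Epor, the erythropoietin receptor, had its highest correlation among the 9 with Klf1 (r = 0.67). Ldb1, a partner of GATA1, had r = -0.80 with Hbb-b1 (permutation p = 0.00034; limma adjusted p = 0.0763), and this gene lies on chromosome 19. Myb, a factor of immature blood cells (10.35 ± 0.40), and Nfe2, a factor of erythroid cells and megakaryocytes (8.67 ± 0.49), both had r = -0.21 with Hbb-b1. Of 7 red cell enzymes 1 had r above 0.5 with Hbb-b1, Bpgm at 0.52, which makes the bisphosphoglycerate that lowers the oxygen affinity of haemoglobin, while the antioxidant enzyme Prdx2 had 0.0056 and Gclm had -0.36. Of the other carbonic anhydrases, Car13 and Car4 had the largest SDs (0.56 and 0.82), both under the detection limit, with r = 0.64 and 0.09 to Car2, and Car9 and Car14 had the highest mean intensities, with r = 0.21 and 0.11.

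**Figure D5:**
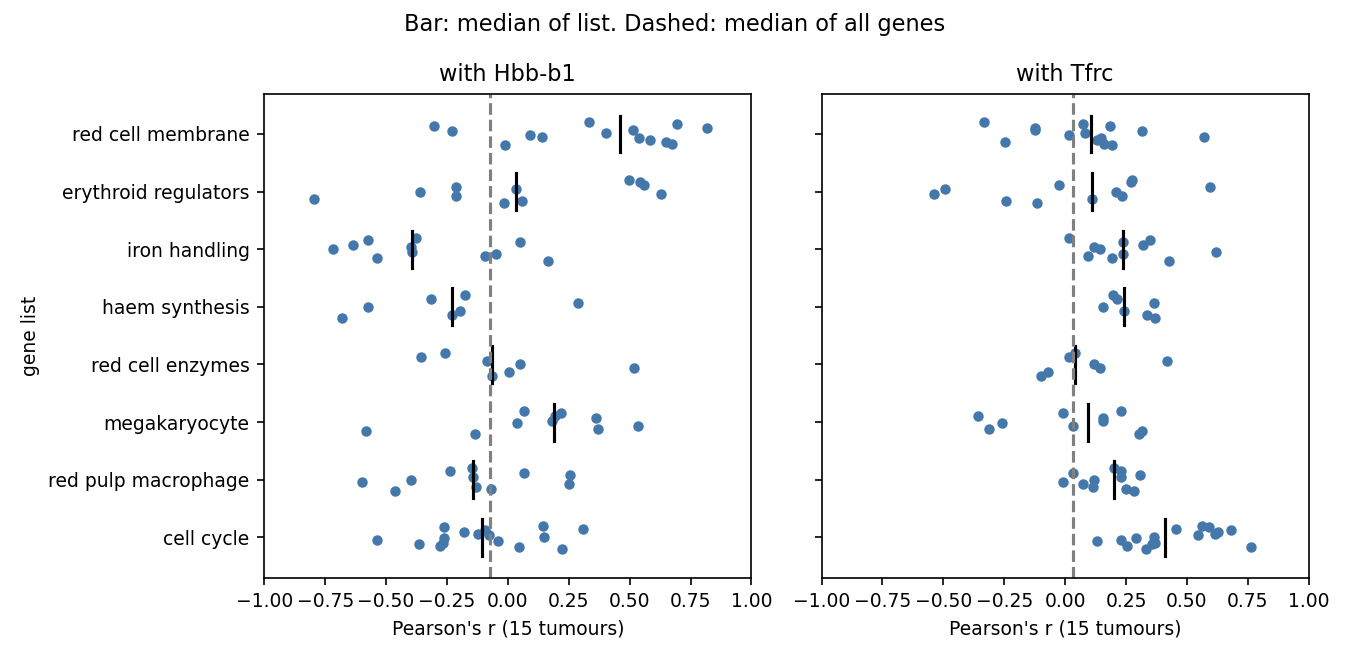
Pearson's r over 15 tumours of each gene of 8 lists (points) with Hbb-b1 at the left and Tfrc at the right; bars are list medians and the dashed line is the median of all genes. The red cell membrane list lies to the right for Hbb-b1 (median 0.46) and the cell cycle list for Tfrc (median 0.41).

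Genes of dividing cells were set beside Tfrc. Of 16 cell cycle genes, 7 had r above 0.5 with Tfrc, against 5.23% of all genes, with a median of 0.41 against 0.03, and none passed the fit. With Hbb-b1, Slc4a1, Alas2 and Rhag none had r above 0.5, and with Car2 1 had. Without tumor_9509 and tumor_9514 the count was 5 for Tfrc (4.64% of all genes), 6 for Car2 (5.10%), 3 for Alas2 (5.62%), 3 for Rhag (3.58%), 1 for Hbb-b1 (4.53%) and 0 for Slc4a1 (2.74%), so it was not higher for Tfrc than for Car2. Top2a, the topoisomerase of dividing cells, had the highest (r = 0.76, permutation p = 0.001; rho = 0.62, permutation p = 0.015; limma adjusted p = 0.334), and r was 0.59 without tumor_29 and tumor_9514. The replication genes Mcm3, Mcm2 and Pcna had r = 0.62, 0.55 and 0.46 with Tfrc, and Mki67, a marker of dividing cells, had 0.33. Tumor_29 was highest for Tfrc and Top2a, with 8.82 for Tfrc and 10.17 for Top2a. Two-sided permutation also gave r = 0.64 for Mpo (p = 0.01) and 0.63 for Kit, the stem cell factor receptor (p = 0.012), which were 0.40 and 0.24 without the same tumours.

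Markers of other cells were set beside the 5 genes that moved together. Of 12 genes of secondary granules and neutrophils, all detected, 7 had r above 0.5 with Alas2 and 2 with Rhag, where 2.93% and 2.34% of all genes did, and 0 with Hbb-b1, Slc4a1 or Car2. Without tumor_9509 and tumor_9514 the count was 2 for Alas2 (5.62% of all genes) and 0 for Rhag (3.58%). Mmp8 and Fpr1, with the largest SDs of that list, had r = 0.55 and 0.59 with Alas2, while S100a8 and S100a9, with the highest means, had 0.07 and 0.39. Of 11 red pulp macrophage genes, none had r above 0.5 with any of the 5, and the median r with Alas2 was -0.13. The only 1 below -0.5 with Alas2, where 4.15% of all genes were, was Adgre1, which encodes F4/80, with r = -0.80 with Alas2 (permutation p = 0.00037; limma adjusted p = 0.290), -0.71 with Car2 and -0.60 with Hbb-b1. Vcam1, an adhesion molecule, and Hmox1, which breaks down haem, had -0.49 and -0.11 with Alas2. Of 10 megakaryocyte genes, 1 had r above 0.5 with Hbb-b1 (3.10% of all genes), Ppbp at 0.54, and Itga2b, an integrin of platelets, had -0.14. None of 7 B cell, 7 T cell and 10 mast cell, basophil and eosinophil genes had r above 0.5 with any of the 5. Their members of highest mean intensity, Cd79a, Cd3d and Prg2, had r = 0.16, 0.39 and 0.02 with Hbb-b1, and Trat1 and Prg3, the most variable of the T cell and of the mast cell, basophil and eosinophil lists, had -0.16 and -0.05. The part of these cells in the levels of the 9 genes was not tested.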

How the data were processed

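Per the labels' protocols, cDNA amplified from 20 ng of total RNA from each of 15 APL spleens was biotin-labelled and run on an Affymetrix whole-transcript exon array of the mouse (Mouse Exon 1.0 ST). The authors deposited 1 linear intensity per probeset and array; the submitters' processing notes name RMA and the build mm9. Here intensities were log2 transformed. Of 229581 probesets, 208397 with 1 symbol in the platform annotation were used. Of 16299 symbols, 2124 were renamed through the RefSeq table of GRCm38.p6 and 43 were not matched, leaving 16277 genes, each the median of its probesets. Log2 intensity has no count behind it, so the number of arrays limits the precision.

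Detected genes (mean above the 40th percentile) were fitted on each erythroid gene with limma's lmFit and eBayes over 15 tumours, with Benjamini-Hochberg adjustment over all genes fitted; correlations used 100000 two-sided permutations. Data were also simulated for the Hbb-b1 fit (9765 genes), with noise drawn independently for each gene, which need not be so on the measured arrays. There 82% of 100 genes with a slope of 0.5 and 100% of 100 with a slope of 1 were recovered, with 13 other calls. Recovery of smaller slopes, such as the 0.37 of Slc4a1 and the 0.20 of Alas2, was not tested. Whether these rates hold for the measured arrays was not tested either. On those arrays the count of genes called with Hbb-b1 ran from 0 to 111 with single tumours left out. Alternatives were the mean over probesets, centred or quantile-normalized arrays, no filter, the number of digits as a term, the 4-digit tumours alone, and leaving out tumor_9509 and tumor_9514, the 2 farthest tumours or each tumour in turn.

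The 9 genes and all gene lists were chosen with earlier results of these data known. Named were the 9 genes; per gene, of detected genes having 3 or more probesets, the 3 of highest r and the 1 of lowest; per list the 2 genes of highest mean and the 2 of largest SD; and per fit the 3 lowest adjusted p in each direction. Not every gene so chosen is described. Others are named as picked after their values were seen, or to describe a relation in the text. Counts of list genes without tumor_9509 and tumor_9514, and the correlations of named list genes, were added after seeing the data. Fits ran in limma 3.58.1 under R 4.3.3, and the rest in Python 3.11.15 with pandas 2.3.3, numpy 2.4.6 and matplotlib 3.10.9.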

Additional observations from a re-analysis of the deposited data

How the results depend on the processing

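No paired analysis was possible because all 15 tumours form 1 group. The correlations among Hbb-b1, Slc4a1, Alas2, Rhag and Car2 kept their direction under every alternative, and each stayed past an unadjusted permutation p of 0.05 except Alas2 with Slc4a1 (0.63 within the 4-digit tumours, 0.48 without the 2 farthest) and Slc4a1 with Car2 (0.61 within the 4-digit tumours). Alas2 with Epb42 missed it without the 2 farthest (0.36). With the mean over probesets, Epb42 passed with Hbb-b1 (0.57), Slc4a1 (0.64), Car2 (0.56) and Rhag (0.71), and Klf1 with Slc4a1 (0.55) and Rhag (0.58). Quantile normalization brought Tfrc with Epb42 (0.52) and Epb42 with Rhag (0.51) past it; the 4-digit tumours did so for Tfrc with Epb42 (0.72) and Car2 with Epb42 (0.69), and leaving out the 2 farthest for Tfrc with Epb42 (0.59). When single tumours were left out, r lay at 0.27 to 0.66 for Alas2 with Epb42, 0.0776 to 0.54 for Car2 with Epb42, 0.25 to 0.55 for Hbb-b1 with Gata1, 0.52 to 0.66 for Klf1 with Car2, 0.0153 to 0.55 for Klf1 with Slc4a1, 0.41 to 0.55 for Tfrc with Epb42 and -0.56 to -0.28 for Tfrc with Slc4a1, crossing 0.05 in each.

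Counts of genes called by limma were less stable. For Hbb-b1 (33) they were 58 with the mean over probesets, 19 with quantile normalization, 28 with centred arrays, 1 with no filter, 0 with the number of digits as a term, 0 without tumor_9509 and tumor_9514, and 0 to 111 with single tumours left out. For Gata1 (5) they were 0, 282, 124, 0, 9 and 0 under the same settings, and 0 to 1085. For Alas2 (0) they were 3 with the mean over probesets and 0 to 1 with single tumours left out, for Slc4a1 (0) 1 with centred arrays, 1 with quantile normalization and 0 to 1, for Car2 (0) 1 with no filter and 0 to 1, and for Rhag (0) 2 with the mean over probesets, 1 without tumor_9509 and tumor_9514 and 0 to 5. Of the 33 genes called with Hbb-b1, 28 were shared with the mean over probesets and 16 with quantile normalization. The cause was not tested. Over all pairs and settings, 727 correlations kept their side of the threshold, 19 came past it and 10 lost it. Signal near background limits Rhag, Klf1, Gata1, Car2 and Epb42.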

Other observations

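Whole chromosomes differed in level between tumours, and these differences run beside the calls for Hbb-b1. For each detected gene the log2 deviation from its 15-tumour median was taken. Each value is the median deviation over a chromosome's genes, minus that over all detected genes of the same array. All were computed after the calls were seen. Over 372 genes of chromosome 19, 5 tumours lay low: tumor_9492 at -0.28, tumor_9523 at -0.25, tumor_9509 at -0.24, tumor_9514 at -0.24 and tumor_31 at -0.19. The other 10 lay between -0.01 and 0.14. Hbb-b1 was 12.37, 11.60, 12.82, 12.46 and 11.42 in those 5 tumours, all above its mean of 11.21. Of the other 10, tumor_9529 and tumor_33 were also above that mean (12.04 and 11.33), with chromosome 19 at -0.01 and 0.01. As the values fall into separate clusters, no pooled correlation is given, and the part of chromosome 19 in the Hbb-b1 calls was not tested. Slc4a1, Alas2, Car2 and Rhag lie on other chromosomes (11, X, 3 and 17).

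Chromosome 16 was high in tumor_9492 (0.29) and tumor_9529 (0.18) over 295 genes, and between -0.08 and 0.00 in the other tumours. These are 2 of the 3 highest tumours for Alas2, at 6.97 and 6.79, and 2 of the 3 genes most like Alas2, Ube2v2 and Mis18a, lie on that chromosome. Mis18a was highest in tumor_9492 (9.11), but Ube2v2 was highest in tumor_9514 (10.51), where chromosome 16 was at -0.02. Tfrc lies on chromosome 16 as well, and was 8.57 in tumor_9492 and 8.35 in tumor_9529. Both are above its mean of 8.23 but under the 8.82 of tumor_29.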
